A study of Mus musculus with 12 samples.

Results

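The SLAM family and its adaptor SAP were followed as 6 genes chosen by name: Slamf1, Slamf6, Slamf7, Cd48, Cd244 and Sh2d1a. Of these, 5 were among the 561 genes of the value table, and Slamf6 was not analysed here. RNA of spleen and of mesenteric lymph nodes, which receive lymph from the intestine, was counted on NanoString's nCounter platform (Mouse Immunology panel), which tallies barcoded probe pairs bound to RNA without amplification. All 12 samples came from separately numbered mice of the strain labelled C57BL6 Exon 16 KO Hemophilia A, a model of the bleeding disorder in which clotting factor VIII is missing, so the controls carried that deletion too. The 4 groups of 3 samples were control spleen, ampicillin spleen, control nodes and ampicillin nodes. Ampicillin, a broad-spectrum antibiotic, was given by gavage at 3 weeks of age and tissues were taken at 6 weeks. No group was described as given gavage without ampicillin, so gavage and ampicillin cannot be told apart. Nothing in the labels describes the controls beyond the absence of treatment.

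SLAM receptors are paired surface proteins of blood cells. Most of them bind a copy of themselves on a neighbouring cell, whereas CD244 binds CD48. The cytoplasmic tails of many of them carry tyrosine motifs that recruit SAP, the small SH2-domain protein encoded by Sh2d1a. SAP brings in the kinase Fyn and supports the contacts of T cells with B cells that germinal centres need. CD48 itself is anchored by a lipid and has no such tail. In spleen and lymph nodes SLAMF1 (CD150) is found on activated T cells, B cells, dendritic cells and macrophages, SLAMF7 on natural killer (NK) cells, plasma cells and dendritic cells, CD244 (2B4) on NK and some myeloid cells, CD48 on nearly all lymphocytes, and SAP mainly in T and NK cells. Loss of SAP in people causes an X-linked immune deficiency marked by severe Epstein-Barr virus disease.

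Total counts ran from 396950 to 738489 per sample. Scaled counts below are counts set to a common level of 14 housekeeping genes. A sample's tissue could be checked from marker genes. The 11 measured T cell markers summed to 13275 to 16328 scaled counts in nodes and 3992 to 7658 in spleens, and the 8 B cell markers to 14001 to 16137 in nodes and 21720 to 29034 in spleens. Ampicillin spleens 2 and 3 stood apart from the other spleens. In them the log2 level of the 4 measured erythroid markers (of 7 listed) averaged 2.98 and 2.54 above the control spleens, against -0.64 in ampicillin spleen 1, and the T cell markers averaged -0.64 and -0.85, against -0.045. The calls between ampicillin and control spleens are therefore also given without single samples. RNA came from whole tissue, in which fewer cells of a type and less RNA per cell cannot be told apart.

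The 4 receptor genes lie together on mouse chromosome 1, in the order of increasing position Cd244a (the current symbol of Cd244), Ly9, Slamf7, Cd48, Tma7-ps, Slamf1, Cd84 and Slamf6, while Sh2d1a lies on the X chromosome. The promoters of these 4 receptor genes are shown as a description. Slamf1, Slamf7 and Cd48 were called lower in the ampicillin spleen, as was Sh2d1a, and Cd244 was not called. The 95% interval of Cd244, -0.65 to 0.21, holds the changes of Slamf1, Slamf7 and Cd48, so it is not set apart from them. A link of promoter sequence to these changes was not tested. Each sequence runs from 250 bases before to 50 bases after the annotated start (RefSeq, GRCm38.p6): Slamf1 chr1:171766882-171767181 (plus strand), Slamf7 chr1:171648950-171649249 (minus strand), Cd48 chr1:171681742-171682041 (plus strand) and Cd244 chr1:171558943-171559242 (plus strand). Capitals mark AGGAAG, a core bound by ETS factors, on either strand (CTTCCT on the other), and TGTGGT, a core bound by RUNX factors, also searched on both strands.
Slamf1: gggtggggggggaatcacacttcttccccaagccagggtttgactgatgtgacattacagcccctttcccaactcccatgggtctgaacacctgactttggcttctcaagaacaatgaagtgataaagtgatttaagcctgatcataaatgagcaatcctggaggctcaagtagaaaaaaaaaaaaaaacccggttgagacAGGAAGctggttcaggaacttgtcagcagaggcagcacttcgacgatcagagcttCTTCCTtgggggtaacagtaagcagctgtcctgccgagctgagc
Slamf7: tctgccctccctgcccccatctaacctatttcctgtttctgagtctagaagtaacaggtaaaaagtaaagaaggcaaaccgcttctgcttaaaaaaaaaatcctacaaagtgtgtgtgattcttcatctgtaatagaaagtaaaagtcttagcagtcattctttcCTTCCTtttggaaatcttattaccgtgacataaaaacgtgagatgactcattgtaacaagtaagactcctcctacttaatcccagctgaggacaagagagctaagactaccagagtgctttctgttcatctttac
Cd48: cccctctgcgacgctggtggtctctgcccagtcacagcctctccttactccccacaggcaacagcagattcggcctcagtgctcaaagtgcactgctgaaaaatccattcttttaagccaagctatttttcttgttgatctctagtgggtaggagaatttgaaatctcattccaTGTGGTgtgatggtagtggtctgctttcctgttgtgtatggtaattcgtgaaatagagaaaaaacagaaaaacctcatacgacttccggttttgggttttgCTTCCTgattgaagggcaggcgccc
Cd244: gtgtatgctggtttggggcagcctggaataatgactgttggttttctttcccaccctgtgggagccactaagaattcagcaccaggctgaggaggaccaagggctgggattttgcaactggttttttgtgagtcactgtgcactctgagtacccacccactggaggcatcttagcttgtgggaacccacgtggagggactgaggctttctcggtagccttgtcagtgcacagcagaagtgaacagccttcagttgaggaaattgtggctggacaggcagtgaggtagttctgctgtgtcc
AGGAAG was found in the Slamf1 window 2 times, starting 49 bases before and at base 7 after the start site, in the Slamf7 window 85 bases before it, and in the Cd48 window at base 26 after it. The Cd244 window held none. Of 32851 mouse promoter windows of this length, 35.4% held this ETS core. The RUNX core TGTGGT, which 16.8% of windows hold, was found in the Cd48 window alone, starting 76 bases before the start and overlapping an E-box (CANNTG). E-boxes were in all 4 windows and in 72.3% of all windows. TTCNNNGAA, a STAT core, and TATAAA were in none of the 4, against 8.3% and 13.6% of all windows. These are matches of letters and were not tested as binding sites.

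In spleen, set after ampicillin against untreated, 4 of the 5 genes fell: Slamf1, Slamf7, Cd48 and Sh2d1a. The median log2 change over the 5 was -0.32, against -0.17 over all 445 tested genes, of which 14.6% fell (adjusted p under 0.05, edgeR, Benjamini-Hochberg over all tested genes). The same 4 had an unadjusted p under 0.05, as did 35.5% of tested genes. In each of the 4, all 3 ampicillin spleens lay below all 3 controls, as did 31.7% of tested genes.

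Slamf1, the receptor that also serves measles virus in people as an entry receptor, stood at 179, 209 and 175 scaled counts in control spleens 1, 2 and 3 and at 102, 108 and 158 in ampicillin spleens 1, 2 and 3. Ampicillin spleen 3 was the closest to the controls. The mean went from 188 ± 18.5 to 123 ± 30.6 (SD, n = 3 each), and Slamf1 fell by 0.61 (log2; SE 0.17; edgeR adjusted p = 0.038).

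Slamf7, a receptor that in NK cells signals through an adaptor related to SAP, read 430, 389 and 356 scaled counts in control spleens and 324, 307 and 317 in ampicillin spleens. The treated spleens differed little from each other, with a coefficient of variation of 2.66% against 9.54% in controls. Slamf7 fell by 0.31 (log2, SE 0.10, adjusted p = 0.047, edgeR).

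Cd48, the lipid-anchored ligand of CD244 and of CD2, read 1447, 1541 and 1423 scaled counts in controls and 1305, 1091 and 1124 after ampicillin. The highest ampicillin spleen, number 1, remained below the lowest control. The means were 1470 ± 62.2 and 1174 ± 115 (SD, n = 3 each), and Cd48 fell by 0.32 (log2; SE 0.09; edgeR adjusted p = 0.028).

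Cd244, the CD48 receptor of NK cells, did not pass. Its values were 66.0, 82.7 and 48.7 scaled counts in controls and 62.5, 50.9 and 55.6 in ampicillin spleens, so the groups overlapped. The log2 change of Cd244 was -0.22 (SE 0.20, 95% interval -0.65 to 0.21, adjusted p = 0.45, edgeR), an interval that holds the changes of Slamf1, Slamf7 and Cd48.

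Sh2d1a, which encodes SAP, read 193, 166 and 204 scaled counts in control spleens and 149, 121 and 109 in ampicillin spleens. The means were 188 ± 19.2 and 126 ± 20.6 (SD, n = 3 each), and Sh2d1a fell by 0.57 (log2; SE 0.12; edgeR adjusted p = 0.018). It was the 13th gene of the 445 by p, ahead of Cd48, Slamf1 and Slamf7.

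**Figure D1:**
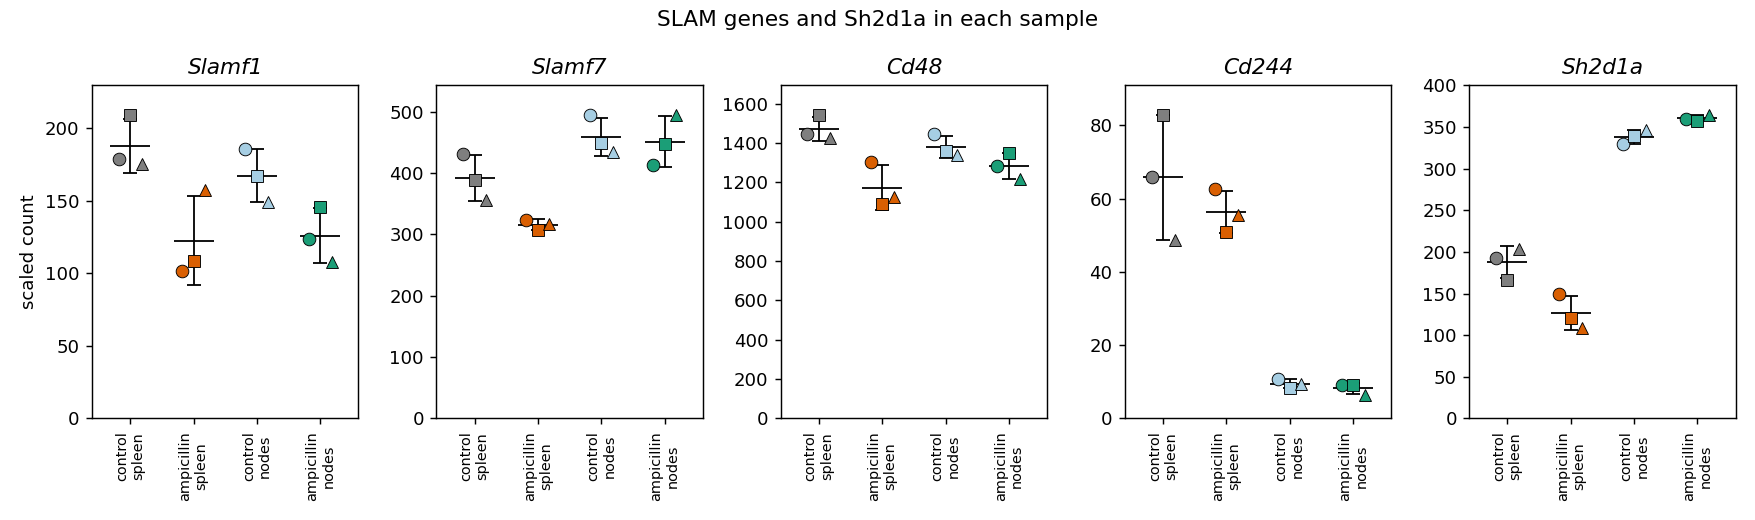
Scaled counts (y axis, linear, from 0, one scale per gene) of the 5 genes in the 4 groups; circles, squares and triangles are samples 1, 2 and 3, and bars show the mean and SD. In spleen all ampicillin samples of Slamf1, Slamf7, Cd48 and Sh2d1a sit below all controls, and Cd244 is at 6.50 to 10.7 in the nodes.

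The 4 calls depended on single spleens and on the scaling. With 1 sample left out at a time, 0 of the 5 passed without ampicillin spleen 2 or control spleen 1, where 4 and 0 of all 445 genes passed. Without ampicillin spleen 3, control spleen 2 or control spleen 3, 1 passed, where 17, 12 and 32 of all genes passed. Without control nodes 2, 2 passed, where 44 of all genes passed. An alternative added after the data were seen left out ampicillin spleens 2 and 3 together, so that 1 sample is assumed to vary like the other groups. The log2 changes (edgeR) were then -0.88 for Slamf1, -0.33 for Sh2d1a, -0.17 for Cd48 and -0.28 for Slamf7. The log2 changes stayed below 0 in all 12 fits without 1 sample, from -0.84 to -0.48 for Slamf1, -0.72 to -0.47 for Sh2d1a, -0.41 to -0.28 for Cd48 and -0.37 to -0.24 for Slamf7. Trimmed-mean (TMM) scaling moved the median of all genes from -0.17 to 0.0041 and the calls over all genes from 10 higher and 65 lower to 11 higher and 10 lower. With TMM scaling none of the 5 passed and 3 had an unadjusted p under 0.05, as did 118 of all 445 genes (edgeR). The log2 changes were -0.42 for Slamf1, -0.40 for Sh2d1a (adjusted p = 0.055, edgeR), -0.15 for Cd48 and -0.13 for Slamf7. With housekeeping scaling, and the all-gene median subtracted, the changes were -0.44, -0.40, -0.15 and -0.14 in the same order.

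Single ampicillin spleens did not rank the same way for the receptor and the adaptor. Slamf1 was lowest in ampicillin spleen 1, at -0.87 (log2) relative to the control mean, then -0.78 in spleen 2 and -0.25 in spleen 3. Sh2d1a ran the other way, at -0.33, -0.62 and -0.78 in spleens 1, 2 and 3, as did the T cell markers at -0.045, -0.64 and -0.85. Ampicillin spleen 1 had the lowest Slamf1 of all 12 samples, at 102 scaled counts, close to 108 in ampicillin nodes 3 and in ampicillin spleen 2. Its T cell and erythroid markers did not stand apart in the direction of spleens 2 and 3. Whether cell content had a part in the Slamf1 values was not tested. Over the 12 samples, as deviations from group means, the Pearson correlation of Slamf1 with Sh2d1a was -0.75, a description over samples that share their scaling and with 3 samples a group.

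**Figure D2:**
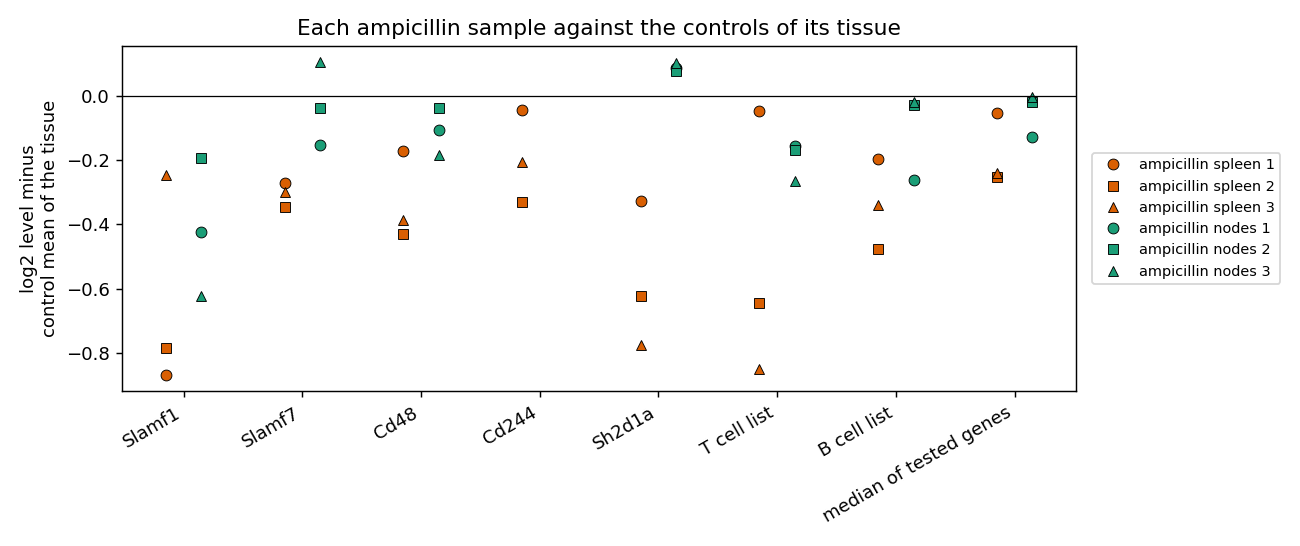
Log2 level of each ampicillin sample minus the mean of the controls of its tissue (y axis) for the 5 genes, the mean over the T cell and B cell marker lists and the median of all tested genes; orange is spleen, green nodes, and Cd244 in nodes is left out as too low. Slamf1 lies furthest down in ampicillin spleen 1 (-0.87), Sh2d1a in ampicillin spleen 3 (-0.78), where the T cell list is also lowest (-0.85).

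Marker lists of the main cell types of spleen were counted in the same comparison, to be read against the 14.6% of all tested genes that fell and the 2.25% that rose. Of 11 measured T cell markers (12 listed) 5 fell and none rose, and their summed level was 6447 to 7658 scaled counts in control and 3992 to 6679 in ampicillin spleens. Of 8 B cell markers 3 fell, with sums of 27651 to 29034 against 21720 to 25672. Of 7 tested NK and cytotoxic markers (10 listed, 9 in the table) 1 fell, a share near that of all genes. The 9 summed to 1191 to 1662 against 1048 to 1114, and 2 of the 9 were below the minimum in both groups. All 3 measured dendritic cell markers (6 listed) fell, with sums of 1987 to 2178 against 1518 to 1814. No call was made among 3 tested plasma cell markers (5 listed, 4 in the table, which summed to 2013 to 2141 against 1751 to 2066). Nor was there a call among 6 monocyte and macrophage markers (8 listed, sums of 4734 to 5251 against 4239 to 5629) or 3 megakaryocyte and platelet markers (4 listed). Of 6 tested follicular helper T cell markers (7 listed) 1 fell, and of 2 progenitor markers 1 rose. Of 4 erythroid markers all rose, at 746 to 1568 in control and 810 to 7491 in ampicillin spleens. The lowest value in every sample was 1, so no marker could stand at 0.

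These marker calls depended on single spleens too. Without 1 sample at a time the T cell list had 0 to 10 falls, the B cell list 0 to 6, the dendritic cell list 0 to 3 and the erythroid list 0 to 4 rises, and all were at 0 without ampicillin spleen 2 or control spleen 1. With TMM scaling 2 T cell markers and no B cell or dendritic cell marker fell, and 2 erythroid markers rose. Without ampicillin spleens 2 and 3 none of these lists had a call, and the median log2 change was -0.03 for the T cell and -0.18 for the B cell list. Their part in the falls was not tested.

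The levels were also set against those of T cell receptor genes. Levels were divided by the geometric mean of Cd3d, Cd3e and Cd247, parts of the T cell receptor complex. That of Sh2d1a was then 0.216 ± 0.013 in control and 0.214 ± 0.031 in ampicillin spleens (SD, n = 3 each). By sample it was 0.232, 0.207 and 0.210 in control spleens and 0.178, 0.231 and 0.233 in ampicillin spleens 1, 2 and 3. Ampicillin spleen 1 thus lay below all controls. With counts scaled to these 3 genes, the log2 change of Sh2d1a was -0.03 (adjusted p = 0.90, edgeR) and that of Slamf1 0.0093 (adjusted p = 0.98), with the median of all genes at 0.39. Per sample the ratio of Slamf1 to the CD3 chains was 0.214, 0.261 and 0.181 in control spleens and 0.121, 0.206 and 0.339 in ampicillin spleens 1, 2 and 3. The ampicillin spleens thus lay on both sides of the controls for Slamf1. The ratio of Cd48 went from 1.71 ± 0.23 to 2.02 ± 0.43 and that of Slamf7 from 0.456 ± 0.078 to 0.551 ± 0.150, with overlapping groups.

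**Figure D3:**
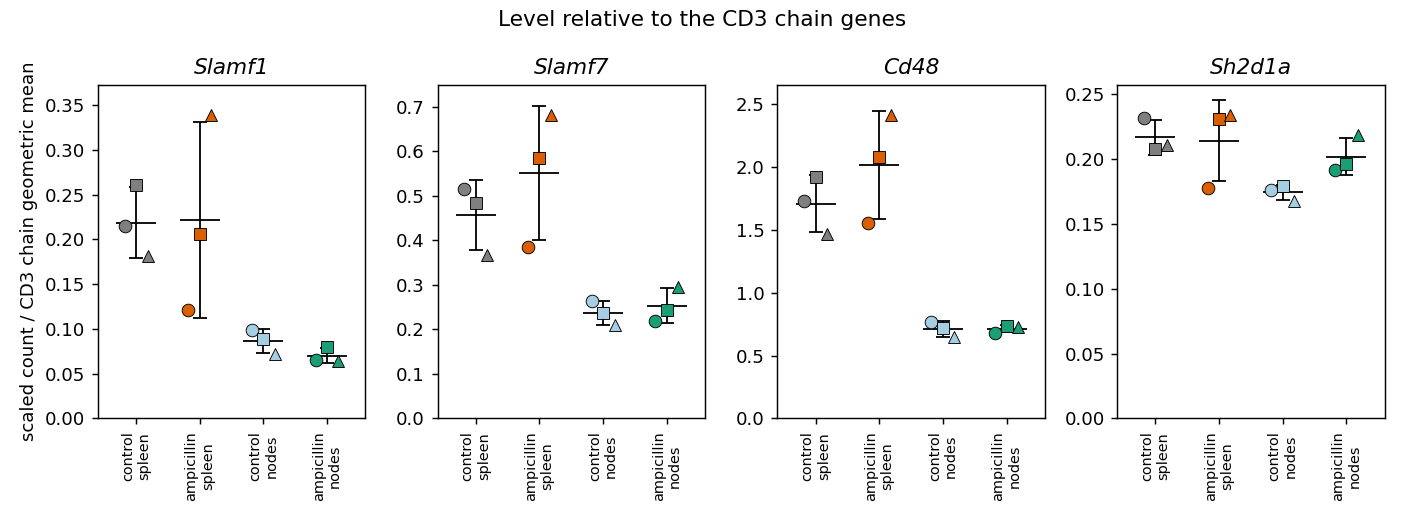
Scaled count of Slamf1, Slamf7, Cd48 and Sh2d1a divided by the geometric mean of Cd3d, Cd3e and Cd247 (y axis, linear, from 0) in the 4 groups; symbols are samples 1, 2 and 3, bars the mean and SD. The Sh2d1a ratio is 0.168 to 0.233 over all 12 samples, whereas the Slamf1, Slamf7 and Cd48 ratios are lower in all nodes than in all spleens.

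Other genes of the pathway were listed by role, 19 in all, of which 8 were in the table and 6 were tested. In spleen 3 of the 6 fell and none rose, where 14.6% of all tested genes fell, and their median log2 change was -0.34 against -0.17 over all genes. Cd2, the second CD48 receptor of mouse T cells, fell by 0.43 (adjusted p = 0.020, edgeR), Lck, the kinase that starts T cell receptor signalling, fell by 0.45 (adjusted p = 0.037), and Gata3, the transcription factor of type 2 helper T cells, fell by 0.51 (adjusted p = 0.025). Fyn, the kinase that SAP binds, stood at -0.26 (adjusted p = 0.095), Ptpn6, the phosphatase SHP-1, at -0.25 (adjusted p = 0.085), and Nfkb1, an NF-kB subunit, at -0.16 (adjusted p = 0.26). None of the 6 passed with TMM scaling, in a fit of the 6 spleens alone or without ampicillin spleens 2 and 3. With 1 sample left out, Cd2 passed in 8 of 12 fits (log2 -0.54 to -0.36), Lck in 7 (-0.59 to -0.35) and Gata3 in 7 (-0.60 to -0.42). All 3 failed without ampicillin spleen 2, ampicillin spleen 3, control spleen 1 or control spleen 2, and Lck and Gata3 also without control spleen 3. The cytokine genes Il4 and Ifng were below the minimum of 20 scaled counts, with group means of 10.1 to 13.1 and 2.08 to 7.11, and were not tested.

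In mesenteric lymph nodes ampicillin against untreated gave no call among the 5 genes with edgeR, DESeq2 or limma, where 0.449% of the 445 genes were called with edgeR. At an unadjusted p under 0.05 there was 1, Slamf1, as for 19.8% of tested genes. It read 186, 168 and 149 scaled counts in control nodes and 124, 146 and 108 in ampicillin nodes, so every treated sample lay below every control, as for 20.7% of tested genes. The log2 change of Slamf1 was -0.40 (SE 0.18, adjusted p = 0.23, edgeR).

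Sh2d1a was higher in all 3 ampicillin nodes than in all 3 controls, as were 10.3% of tested genes, by a small amount. It read 330, 339 and 347 scaled counts in control nodes and 360, 358 and 364 in ampicillin nodes. The log2 change of Sh2d1a was 0.09 (SE 0.12, 95% interval -0.16 to 0.34, adjusted p = 0.70, edgeR), so the model, whose spread is shared over the 4 groups, did not separate it from 0. Over the same samples the T cell markers stood at -0.15, -0.17 and -0.26 (log2, mean over the list) relative to control nodes. The ratio of Sh2d1a to the CD3 chains was 0.174 ± 0.0058 in control and 0.202 ± 0.014 in ampicillin nodes (SD, n = 3 each), and with counts scaled to those chains the change was 0.21 (adjusted p = 0.80, edgeR).

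Cd48 read 1445, 1358 and 1338 scaled counts in control nodes and 1284, 1347 and 1216 in ampicillin nodes, and the groups overlapped. Its log2 change was -0.11 (SE 0.09, 95% interval -0.29 to 0.08, adjusted p = 0.50, edgeR). Slamf7 was 494, 449 and 434 against 412, 447 and 494 scaled counts, with a log2 change of -0.02 (SE 0.10, 95% interval -0.23 to 0.19, adjusted p = 0.91). Cd244 stood at 8.20 to 10.7 scaled counts in control and 6.50 to 9.17 in ampicillin nodes, below the minimum in both groups, so a fitted change of Cd244 in nodes is not read as a measured one. None of the 6 pathway genes was called in nodes, with Cd2 at -0.27 (adjusted p = 0.18) and Gata3 at -0.29 (adjusted p = 0.19).

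**Figure D4:**
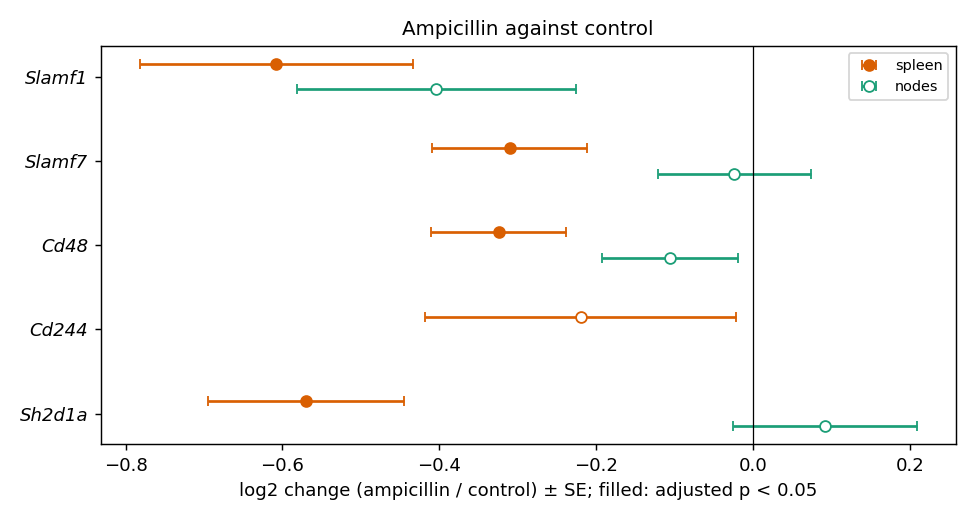
Log2 change with ampicillin (x axis, with SE from edgeR) in spleen (orange) and nodes (green) for each gene; filled symbols passed an adjusted p of 0.05, and Cd244 in nodes is left out as too low. The spleen points of Slamf1, Slamf7, Cd48 and Sh2d1a are filled and lie between -0.61 and -0.31, and none of the node points is filled.

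Whether the ampicillin effect differed between tissues was tested as the effect in nodes minus that in spleen. None of the 5 genes was called with edgeR or DESeq2, as was 0% of all 445. At an unadjusted p under 0.05 there was 1, Sh2d1a, as for 11% of tested genes. Its difference was 0.66 (log2, SE 0.17, 95% interval 0.29 to 1.03, adjusted p = 0.31, edgeR), the second smallest p of the 445 genes. The Sh2d1a difference passed only without ampicillin spleen 1 (0.81, adjusted p = 0.0063) among the 12 fits that left out 1 sample. With counts scaled to the CD3 chains the Sh2d1a difference was 0.24 (adjusted p = 0.60), with the median of all genes moved from 0.13 to -0.31. For Slamf7, Cd48 and Slamf1 the differences were 0.29 (adjusted p = 0.46), 0.22 (adjusted p = 0.51) and 0.20 (adjusted p = 0.75). Their 95% intervals ran from -0.01 to 0.59, -0.04 to 0.48 and -0.33 to 0.74, so neither an equal effect nor a sizeable difference was distinguished.

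Averaged over both tissues, 2 of the 5 genes fell, Slamf1 and Cd48, where 20% of tested genes fell. The mean effect on Slamf1 was -0.51 (log2, SE 0.12, adjusted p = 0.013, edgeR), and it passed in all 12 fits without 1 sample. That on Cd48 was -0.22 (SE 0.06, adjusted p = 0.023), and it did not pass without ampicillin spleen 2, ampicillin spleen 3, control spleen 2 or control nodes 1 (adjusted p = 0.058, 0.051, 0.062 and 0.065). Sh2d1a stood at -0.24 (adjusted p = 0.062) and Slamf7 at -0.17 (adjusted p = 0.10). With TMM scaling, Slamf1 was the 1 gene of the 5 that passed. This mean shares its samples with the comparisons within tissues.

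The last comparisons set lymph nodes against spleen. In control mice Sh2d1a was higher in nodes and Cd244 lower, where 29.7% of tested genes were higher and 34.4% lower. Sh2d1a was 1.80-fold higher (log2 0.85, SE 0.12, adjusted p = 3.6e-05, edgeR), at 330 to 347 scaled counts in nodes and 166 to 204 in spleen. Cd244 averaged 65.8 ± 17.0 scaled counts in spleen and 9.49 ± 1.27 in nodes (SD, n = 3 each). Against the minimum of 20 it was at least 3.29-fold lower in nodes. The adjusted p of 8.8e-07 (edgeR) belongs to its fitted change, not to this bound. Cd244 reached the minimum for testing only through its spleen values, so this p is not independent support. The Sh2d1a call passed in all 12 fits without 1 sample, at 0.77 to 0.91 (log2). The Cd244 call passed in them too, but each fit kept the same filter and low node counts, so this adds no support. Of the 7 tested NK and cytotoxic markers 3 were lower in nodes, to be read against the 34.4% of all tested genes. The 9 such markers in the table summed to 676 to 860 scaled counts in nodes, where 3 were below the minimum, and to 1191 to 1662 in spleen.

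Slamf1 and Cd48 did not pass between the tissues in control mice. Slamf1 averaged 167 ± 18.2 scaled counts in nodes and 188 ± 18.5 in spleen (log2 -0.17, 95% interval -0.54 to 0.20, adjusted p = 0.41). Cd48 averaged 1380 ± 57.1 and 1470 ± 62.2 (log2 -0.09, 95% interval -0.28 to 0.09, adjusted p = 0.37). Slamf7 was higher in all 3 control nodes than in all 3 control spleens, at 434 to 494 against 356 to 430 scaled counts, as were 35.3% of tested genes, with a log2 difference of 0.23 (adjusted p = 0.055, edgeR). With TMM scaling Slamf7 passed (log2 0.29, adjusted p = 0.0067).

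In ampicillin mice 2 of the 5 were higher in nodes and 1 lower, where 33.5% of tested genes were higher and 29.7% lower. Sh2d1a was 2.85-fold higher (log2 1.51, SE 0.12, adjusted p = 3.6e-07, edgeR), at 358 to 364 scaled counts against 109 to 149. Slamf7 was 1.43-fold higher (log2 0.51, SE 0.10, adjusted p = 0.00049), at 412 to 494 against 307 to 324. Cd244 was at least 2.82-fold lower against the minimum. The adjusted p of its fitted change was 2.4e-06 (edgeR), with the same limit as in control mice. The Sh2d1a and Slamf7 calls in ampicillin mice held in all 12 fits without 1 sample. The Cd244 call did so too, which again adds no support. Slamf1 and Cd48 did not pass (log2 0.04 and 0.13, adjusted p = 0.90 and 0.22).

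Of the 11 T cell markers all were higher in nodes. With counts scaled to the CD3 chains, the median of all genes moved from -0.03 to -1.20 in control mice. Slamf1, Slamf7 and Cd48 were then lower in nodes (log2 -1.34, -0.95 and -1.26, adjusted p = 0.00054, 0.00072 and 7.2e-06, edgeR). Slamf1 and Cd48 lay near that median and Slamf7 above it, so these calls are not read as particular to these genes. Sh2d1a was at -0.31 (adjusted p = 0.078) in control and -0.08 (adjusted p = 0.66) in ampicillin mice on this scale.

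**Figure D5:**
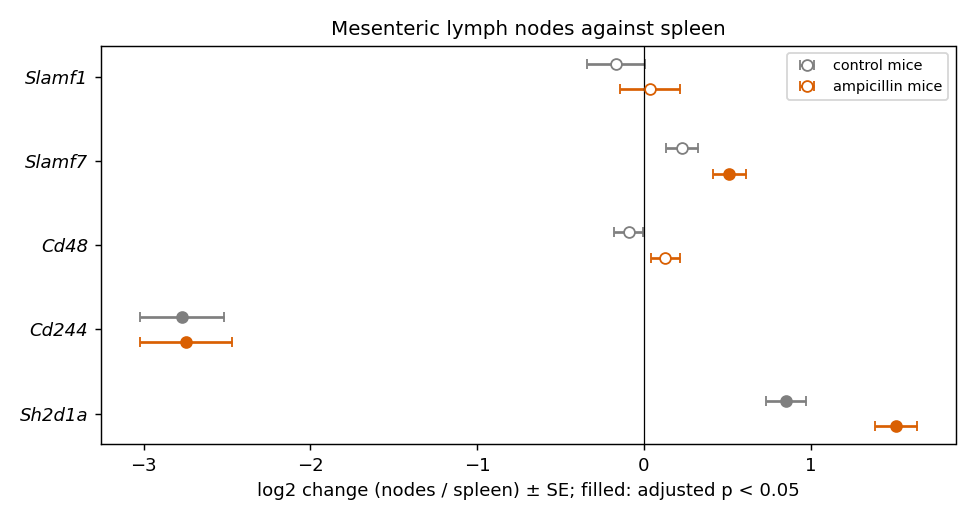
Log2 change of nodes against spleen (x axis, with SE from edgeR) in control mice (grey) and ampicillin mice (orange); filled symbols passed an adjusted p of 0.05. Cd244 is below the minimum in nodes, so its points depend on counts of 5 to 12, and Sh2d1a is the gene furthest to the right in both kinds of mice (0.85 and 1.51).

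By level, the order of the 4 groups differed from gene to gene. For Sh2d1a it ran from ampicillin nodes (361 ± 3.29) over control nodes (338 ± 8.25) and control spleen (188 ± 19.2) to ampicillin spleen (126 ± 20.6 scaled counts, SD, n = 3 each), with no overlap between neighbours. Slamf7 had control nodes (459 ± 31.4), ampicillin nodes (451 ± 41.0), control spleen (392 ± 37.4) and ampicillin spleen (316 ± 8.39). There control nodes overlapped ampicillin nodes, and these overlapped control spleen, while the spleen groups did not overlap. Slamf1 and Cd48 shared an order of control spleen, control nodes, ampicillin nodes and ampicillin spleen, in which neighbours overlapped for Cd48. For Slamf1 all neighbours overlapped except control and ampicillin nodes.

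Genes with the most similar pattern over the 12 samples were found by Pearson correlation of log2 levels, as a description, since samples share tissue and scaling. For Sh2d1a they were Cd3d (0.99), the immunoproteasome gene Psmb10 (0.98) and the T cell factor Tcf7 (0.98). For Slamf1 they were Cd274, which encodes PD-L1 (0.84), the kinase gene Map4k2 (0.76) and Il17ra (0.75). Slamf7 was most like the dendritic cell chemokine receptor gene Xcr1 (0.94), Aire (0.94) and the interleukin 4 receptor gene Il4ra (0.94), and Cd48 most like the NK and T cell receptor gene Cd226 (0.92), Il17ra (0.88) and Traf5 (0.87). For Cd244 the closest were the platelet gene Ppbp (0.99), Ccr3 (0.99) and Fcgr2b (0.98). Cd244 was below the minimum in all nodes, so these values mainly set spleens against nodes. The Spearman correlations with these genes were 0.86, 0.88 and 0.95.

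After group means were subtracted, which leaves the spread within groups, the closest genes changed. Sh2d1a then went with Ltb (0.94), Cd3e (0.93) and Icam1 (0.93), Cd48 with Lef1 (0.94), Fcgr2b (0.91) and Cd1d1 (0.91), and Slamf7 with Il18 (0.86), Ciita (0.85) and Il12rb2 (0.85). Within groups Slamf1 went with Ccbp2 (0.86), Cfd (0.80) and Pdgfb (0.78), and Cd244 with Nfatc2 (0.84), Ccl6 (0.82) and Adal (0.80). Among the 5 genes themselves the highest such correlation was 0.71, between Cd48 and Cd244, and that of Slamf1 with Cd48 was 0.13. All within-group correlations of Cd244 include its node values, which were below the minimum.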

How the data were processed

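RNA of 12 samples was measured on the nCounter Mouse Immunology panel. The deposited values are whole-number counts, although the design text names nSolver normalization to 14 housekeeping genes. Their housekeeping geometric mean still ran from 912 to 1501, a 1.65-fold range, and totals from 396950 to 738489, so they were treated as unnormalized counts. The lowest count was 1 in every sample. Whether the authors scaled these counts to control probes is not given in the sources used here. A further table has 12 per-sample columns whose names match no label, and they were not used.

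Counts were divided by a housekeeping factor. The 14 genes were named from knowledge of the panel. Tests covered 445 of 547 other genes, those whose average reached 20 scaled counts, with all 5 measured members among them, with edgeR 4.0.16 (R 4.3.3): the quasi-likelihood test on 4 group means, 8 residual degrees of freedom, Benjamini-Hochberg over 445 genes. DESeq2 1.42.0 and limma 3.58.1 on log2(scaled count + 1) of the deposited counts were alternatives. The SE and p measure a spread shared by the 4 groups. Precision is limited by 3 samples a group. Similar genes, the 3 highest correlations per member, and all members were the named genes. Members, lists and tests were chosen with earlier results of these data known. The edgeR script was tested on simulated data. Symbols were matched to RefSeq GRCm38.p6, 4 as current symbols and Cd244 as a synonym. Probes have no stated build. Between replicates chi-square per degree of freedom was 3.59 to 66.1, above sampling noise, and all 12 samples counted singly. Its highest values, 43.0 and 66.1, were those of ampicillin spleen 1 with ampicillin spleens 2 and 3, and no other pair was above 15.5. The labels number separate mice.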

Additional observations from a re-analysis of the deposited data

Results flagged for a closer look

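For Sh2d1a all 3 ampicillin spleens lay below all 3 control spleens, as for 31.7% of tested genes, and all 3 ampicillin nodes above all 3 control nodes, as for 10.3%. Sh2d1a fell in spleen, and in nodes its log2 change of 0.09 did not pass (SE 0.12, 95% interval -0.16 to 0.34, adjusted p = 0.70, edgeR). The difference of effects was 0.66 on the log2 scale and did not pass when tested (adjusted p = 0.31, edgeR). The adjusted p ranged from 0.0063 to 0.59 when single samples were left out, and with counts scaled to the CD3 chain genes the difference was 0.24.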

How the results depend on the processing

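Most member calls in spleen rest on housekeeping scaling and on the spread shared over 4 groups. In spleen the 4 calls became 0 with TMM scaling, with scaling to the median of tested genes and with scaling to the CD3 chains, 1 with DESeq2's own size factors, 0 in a fit of the 6 spleens alone (4 at an unadjusted p under 0.05, edgeR) and 0 without ampicillin spleens 2 and 3, and lay between 0 and 4 with 1 sample left out. DESeq2 with housekeeping size factors gave 4, and no filter, limma and the methods' t-test 3 each (0 of them after Benjamini-Hochberg with the last). With a replicate block the count was 2, and the titles share only a number: same-numbered samples had correlations from -0.38 to 0.24 and the labels name different mice. Over all genes the spleen calls were 75 with housekeeping scaling (10 higher, 65 lower), 21 with TMM (11 and 10), 19 with median scaling (10 and 9), 59 with CD3 scaling (59 and 0), 95 and 54 with DESeq2 on housekeeping (10 and 85) and own size factors (25 and 29), 60 without a filter, 51 with the methods' t-test, 44 with limma, 41 with the replicate block, 6 without ampicillin spleens 2 and 3, 0 in the spleens alone (122 unadjusted) and 0 to 159 with 1 sample left out. In nodes they were 2, 31 with TMM, 26 with median scaling, 22 and 44 with DESeq2 on housekeeping and own size factors, 38 with the methods' t-test, 15 in the nodes alone, 0 with CD3 scaling (30 unadjusted) or the block (83 unadjusted), and 0 to 32 with 1 sample left out. The methods' t-test counts, 51 in spleen and 38 in nodes, used an unadjusted p under 0.05 and a fold above 1.25. After Benjamini-Hochberg both were 0.

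Averaged over tissues the 2 calls became 1 with TMM, median scaling, DESeq2's own size factors or without ampicillin spleens 2 and 3, and 0 with CD3 scaling, and ran from 1 to 3 with 1 sample left out. Between tissues in control mice the 2 calls became 4 with CD3 scaling, which lowered the median of all genes too. They were 2 to 3 with 1 sample left out. In ampicillin mice they were 3 to 4, in nodes 0, and for the difference 0 to 1. The 1 came without ampicillin spleen 1, where 59 of all 445 genes passed. With housekeeping scaling, 13 of all genes were higher and 89 lower for the average. Between tissues these were 132 and 153 in control mice and 149 and 132 in ampicillin mice. Counts over all genes with the other settings are not given here, so these member counts are not read as particular to the members.

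With CD3 scaling 20 of the 30 log2 changes of the members changed direction, and in spleen the median of all genes moved from -0.17 to 0.39. In spleen Slamf1, Slamf7, Cd48 and Cd244 stood at 0.0093, 0.27, 0.24 and 0.31, and in nodes Slamf7 and Cd48 at 0.097 and 0.0085. The differences of Slamf1, Slamf7, Cd48 and Cd244 were -0.31, -0.17, -0.23 and -0.39, and the averages of Slamf7, Cd48, Cd244 and Sh2d1a 0.18, 0.12, 0.12 and 0.092. Nodes against spleen gave -0.95 for Slamf7 and -0.31 for Sh2d1a in control mice, and -1.65, -1.12, -1.49 and -0.077 for Slamf1, Slamf7, Cd48 and Sh2d1a in ampicillin mice.

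Other reversals were of values that did not pass in either setting, and the cause was not tested. Slamf7 in nodes was 0.0069 with TMM, 0.044 with median scaling, 0.043 with DESeq2's own size factors, and from -0.093 to 0.036 with 1 sample left out. The fitted Cd244 difference, which like the Cd244 average includes node groups below the minimum and is no measured change, was -0.12 with TMM, -0.070 with median scaling, -0.071 with DESeq2's own size factors, -0.023 with the replicate block, -0.12 without ampicillin spleens 2 and 3, and from -0.17 to 0.20 with 1 sample left out. Slamf1 between tissues in ampicillin mice was -0.055 with TMM, -0.013 with median scaling and with DESeq2's own size factors, and from -0.092 to 0.27 with 1 sample left out, and Cd48 there -0.025 without ampicillin spleens 2 and 3. Cd244 in nodes had 5 to 12 counts and was below the minimum in both groups, so its fitted values there are no measured changes. Why its counts were low in nodes was not tested.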
